A study of Mus musculus with 11 samples.

Results

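Wnt4, Wnt5a, Wnt5b, Wnt7a and Wnt7b encode secreted ligands of the Wnt family. They were followed as the rows of these 5 symbols among 24898 genes listed over 4 ages of the developing mouse cochlea. The data were 11 droplet libraries of single cells (10x Chromium, which counts the 3′ ends of transcripts) from the floor of the cochlear duct of wild-type CD1 mice. Embryonic day 14 (E14) had 2 libraries, E16 had 3, postnatal day 1 (P1) had 4 and P7 had 2, with no treatment at any age. Cochleae of several pups or animals of either sex were pooled for each collection, and most of the roof and lateral wall of the duct had been dissected away. The study's reporting describes each collection as coming from a single litter, so that the spread between libraries is the spread between pooled collections. On the mm10 mouse genome, with gene models of GENCODE release M21, all 5 are protein-coding genes. Wnt4 lies on the plus strand at chr4:137277489-137299726 and Wnt5a on the plus strand at chr14:28504750-28527448. The other 3 are on the minus strand, Wnt5b at chr6:119432531-119544347, Wnt7a at chr6:91363981-91411363 and Wnt7b at chr15:85535437-85582473.

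Wnt proteins are lipid-modified by Porcn, carried to the cell surface by Wls and bound by Frizzled receptors, either with Lrp5 or Lrp6, which leads to β-catenin-dependent transcription, or with Ror and Ryk receptors, which acts on cell shape and polarity. Secreted antagonists such as the Sfrp and Dkk families hold signalling down, whereas R-spondins and their Lgr receptors raise it. In the cochlea the pathway is known for its part in hair cell formation and in the orientation of hair bundles. The duct floor runs from interdental cells and Kölliker's organ on the medial side, through the organ of Corti with its hair cells and supporting cells, to Hensen's, Claudius and outer sulcus cells on the lateral side.

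The libraries held 30634 cells, 1247 to 5598 per library, with 3828399 to 23523802 UMIs (unique molecular identifiers, each marking 1 captured transcript) and a median of 2478 to 5647.5 UMIs per cell. Pairs of libraries of an age shared 5 to 27 cell barcodes. No file used here gave the type of each cell, so cells were clustered within each age without any gene of the Wnt pathway, and clusters were named from lists of other marker genes. This gave 8 duct regions, of which Kölliker's organ was the most abundant, with 2394, 3059 and 4975 cells at E14, E16 and P1. Markers differed in how closely they kept to their region. Oc90, a marker of the cochlear roof, averaged 34265, 32533 and 41367 UMIs per 1000000 UMIs of a cell (CPM) in roof cells at E14, E16 and P1 and at most 753 CPM in any other region of a library, and Pou4f3, a hair cell transcription factor, averaged 1403 to 1558 CPM in hair cells and at most 76.2 CPM elsewhere. Other markers were shared. Calb1 averaged 1580 CPM in Kölliker's organ at P1 and reached 3146 CPM in a library of another region, Epyc averaged 888 CPM there at E14 and reached 946 CPM elsewhere, and Gata2 averaged 669 and 546 CPM in outer lateral cells at E16 and P1 and reached 965 and 890 CPM elsewhere. No cluster was named as Hensen's cells at E14, and Matn4, a marker of inner phalangeal cells, stood at 1.14 CPM in the medial sensory cells of E14 against 1729 CPM at E16. Unnamed cells made up 21.97% of E16, 37.7% of P1 and 88.6% of P7, where hair cells (230 cells) and lateral supporting cells (155 cells) were the only regions named. All levels below are CPM, averaged over the cells of a region within a library, and are given in the order of the replicate numbers (1 and 2 at E14, 1 to 3 at E16, 1 to 4 at P1, 4 and 5 at P7).

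Wnt4, a ligand known from the development of the kidney and the female reproductive tract, was high in the roof and low in every region of the floor. In roof cells it stood at 90.8 and 56.2 CPM at E14, at 319, 260 and 120 CPM at E16 and at 136, 108, 141 and 156 CPM at P1. In Kölliker's organ it stood at 1.24 and 1.18 CPM at E14, at 2.104, 2.13 and 2.30 CPM at E16 and at 4.33, 2.78, 2.12 and 2.57 CPM at P1. At each of these 3 ages the lowest roof library was above the highest library of any floor region. The difference between the roof and the mean of the floor regions, on the log2(CPM + 10) scale used for all fold changes here, was 2.83 ± 0.19 (SE) at E14, 4.22 ± 0.26 at E16 and 3.22 ± 0.22 at P1. At P1 it passed limma's test across all genes (adjusted p = 1.94e-14). At E14 and E16, Wnt4 passed the filter on low values (a mean of 5 CPM over all region profiles) through its roof profiles alone, since its floor mean was 1.71 and 2.53 CPM, and a gene admitted in that way had to differ. In the fit with no such filter, the adjusted p of Wnt4 was 1.13e-05 at E14 and 1.55e-09 at E16.

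Roof cells were not uniform in Wnt4. Of the 4 roof clusters at E14, the cluster of 222 cells led by Ttr held 168 and 239 CPM in the 2 libraries. Another of 272 cells, led by Oc90, held 42.0 and 47.1 CPM, and 159 cells led by Ecel1 held 5.84 and 29.2 CPM. The last, 204 cells led by Anxa1, held 1.47 and 3.17 CPM, which is within the range of floor regions. These ranges did not overlap between clusters. Wnt5a was lowest in the first of these and highest in the last, with 2.39 and 8.84 CPM in the Ttr-led cluster and 42.4 and 68.8 CPM in the Anxa1-led cluster. At E16, 201 cells whose markers lay between roof and marginal cells, and which therefore stayed unnamed, averaged 5.97 CPM of Wnt4 and 94.8 CPM of Wnt5a. These clusters were built from the same cells, so that the contrast between them is a description with no test.

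After each cell was thinned to 1500 UMIs, Wnt4 was seen in 8.05% of roof cells at E14 (95% exact interval 6.32 to 10.1%), 20.0% at E16 (15.1 to 25.6%) and 16.6% at P1 (11.4 to 22.9%). Before thinning these shares were 20.2%, 37.5% and 36.6%. In hair cells the thinned shares were 0% (0 of 61 cells), 0.499% and 0.197%, at median depths of 4876, 3439 and 6628 UMIs per cell against 4482, 3256.5 and 4827 UMIs in the roof. These intervals cover counting error only. Some hair cells held the gene, with 18.5, 6.38 and 0 CPM of Wnt4 in inner hair cells of E16 (38, 63 and 31 cells) and 5.84 to 8.41 CPM in hair cells of P7. Within the floor, Wnt4 at P1 was higher on the lateral side, with 8.69, 15.6, 33.7 and 6.42 CPM in Hensen's cells and 12.9, 8.43, 16.2 and 4.67 CPM in outer lateral cells (Claudius and outer sulcus cells and their precursors). Medial minus lateral nonsensory floor came to a log2 difference of -0.75 ± 0.20 (adjusted p = 0.00601). Without replicate 3, the highest in both regions, it was -0.54 (adjusted p = 0.116), and without cells of more than 3000 genes it was -0.51 (adjusted p = 0.103). Hensen's cells held 11.9% of the roof level of Wnt4 at P1 and outer lateral cells 7.81%, against 0.473% and 0.176% of the roof level of the roof marker Oc90.

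**Figure D1:**
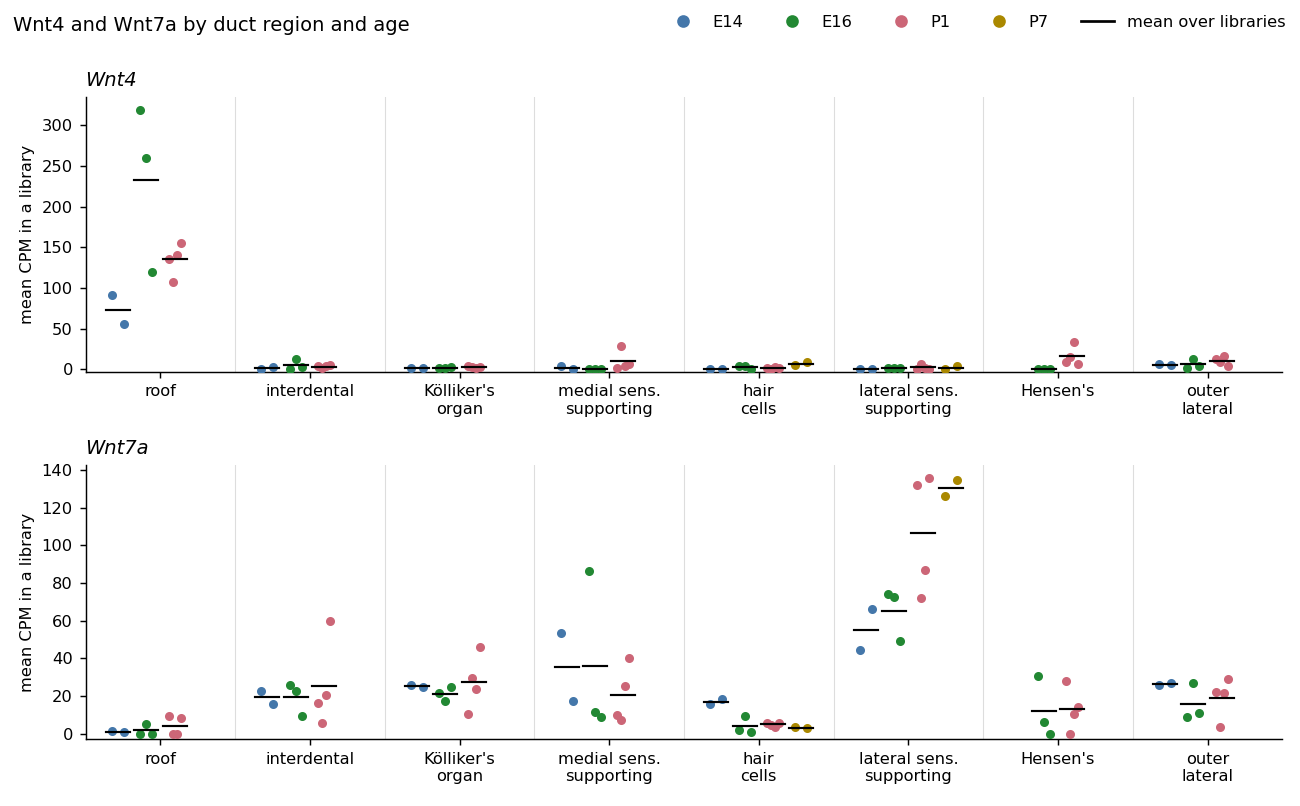
Mean CPM of Wnt4 (top) and Wnt7a (bottom) in each duct region, with 1 point per library coloured by age and a line at the mean over libraries. Wnt4 is high in the roof, from 56.2 to 319 CPM, and Wnt7a is highest in lateral sensory supporting cells, where it reaches 136 CPM at P1.

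Wnt7a, known for setting dorsal identity in the limb and for blood vessel formation in the brain, was highest in the lateral sensory supporting cells. These were the lateral prosensory cells of E14 and the later clusters nearest to the pillar and Deiters' lists. There Wnt7a stood at 44.5 and 66.1 CPM at E14, at 74.0, 72.3 and 49.2 CPM at E16, at 132, 71.9, 87.1 and 136 CPM at P1 and at 126 and 134 CPM at P7. In hair cells it stood at 15.6 and 18.3 CPM, at 1.88, 9.24 and 0.915 CPM, at 5.76, 4.45, 3.83 and 5.90 CPM and at 3.54 and 2.83 CPM at the same ages. Hair cells and lateral supporting cells did not overlap at any age, and the ratio of their means at E14, E16, P1 and P7 was 3.26, 16.2, 21.4 and 40.9. At E14 hair cells overlapped the medial sensory supporting cells, which held 53.3 and 17.5 CPM. Hair cells were lower than the mean of all sensory supporting cells by log2 differences of -0.95 ± 0.29 at E14, -1.89 ± 0.42 at E16 and -1.92 ± 0.28 at P1 (adjusted p = 0.0287, 0.00149 and 5.02e-07). At E14 the call was lost when low genes were not filtered (adjusted p = 0.0845) and when regions were assigned cell by cell (0.0748). At P7, where only lateral supporting cells could be compared, it was -3.41 ± 0.32, in a fit with 1 residual degree of freedom per gene. Wnt7a passed the filter on low values at P7 through its supporting cell level alone and had to differ, and the adjusted p with no filter was 1.78e-25. The filtered P7 fit drew 99.2 prior degrees of freedom from the spread of other genes. A p of this fit thus says little about the spread of Wnt7a between the libraries.

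The level in the medial sensory supporting cells, medial prosensory and then inner phalangeal cells, varied more between libraries. It stood at 53.3 and 17.5 CPM at E14, at 86.6, 11.7 and 8.84 CPM at E16 and at 10.2, 7.41, 25.3 and 40.4 CPM at P1. The high E16 library contributed 20 of these cells. Lateral and medial supporting cells overlapped at E14 and E16 and were apart at P1, where lateral minus medial was 2.01 ± 0.33 (adjusted p = 2.01e-05). At E16 this difference was 1.12 (adjusted p = 0.187), and 1.79 without replicate 1 (adjusted p = 0.0115). The change in the difference from E14 to P1 was 1.39 (adjusted p = 0.256) and did not pass.

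Taken over both kinds of sensory supporting cell, Wnt7a exceeded the nonsensory floor by 0.63 ± 0.21 at E14 (adjusted p = 0.0575), 0.99 ± 0.30 at E16 (0.0257) and 1.02 ± 0.20 at P1 (0.000138). The P1 excess rested on the lateral cells, since medial supporting cells averaged 20.8 CPM, within the 13.1 to 27.5 CPM of the nonsensory regions. At E16 the medial mean of 35.7 CPM rested on replicate 1 (86.6 CPM), and the other medial libraries (11.7 and 8.84 CPM) were below Kölliker's organ (17.2 to 24.9 CPM). The E14 value passed with summed UMIs (0.79, adjusted p = 0.00642), with a pseudocount of 30 CPM (0.45, adjusted p = 0.0372) and with profiles centred on their median (0.66, adjusted p = 0.0471), and the E16 call was lost without any 1 of the 3 libraries (adjusted p = 0.0633, 0.0890 and 0.145 without replicate 1, 2 and 3), with a pseudocount of 3 CPM (0.0763), with no filter on low values (0.0692) and with no library term (0.0523). In the roof Wnt7a was nearly absent, with 1.34 and 0.843 CPM at E14, 0, 5.30 and 0 CPM at E16 and 9.26, 0, 0 and 8.21 CPM at P1. Roof minus floor was -1.75 ± 0.25, -1.29 ± 0.37 and -1.19 ± 0.25. With roof means of 1.09, 1.77 and 4.37 CPM, under the filter on low values, Wnt7a entered these fits through the floor and had to differ. In the fit with no filter, limma's adjusted p was 0.00223, 0.0414 and 0.00129. At E16 the filtered fit missed the threshold without replicate 2 (-1.46, adjusted p = 0.0693) or replicate 3 (-1.40, adjusted p = 0.113). Wnt7a thus had the opposite order to Wnt4 between roof and floor. After thinning, Wnt7a was seen in 6.43%, 6.90%, 16.7% and 21.3% of lateral supporting cells from E14 to P7 (23.4%, 13.7%, 42.5% and 43.9% before thinning) and in 1.64%, 0.832%, 0.887% and 1.30% of hair cells.

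**Figure D2:**
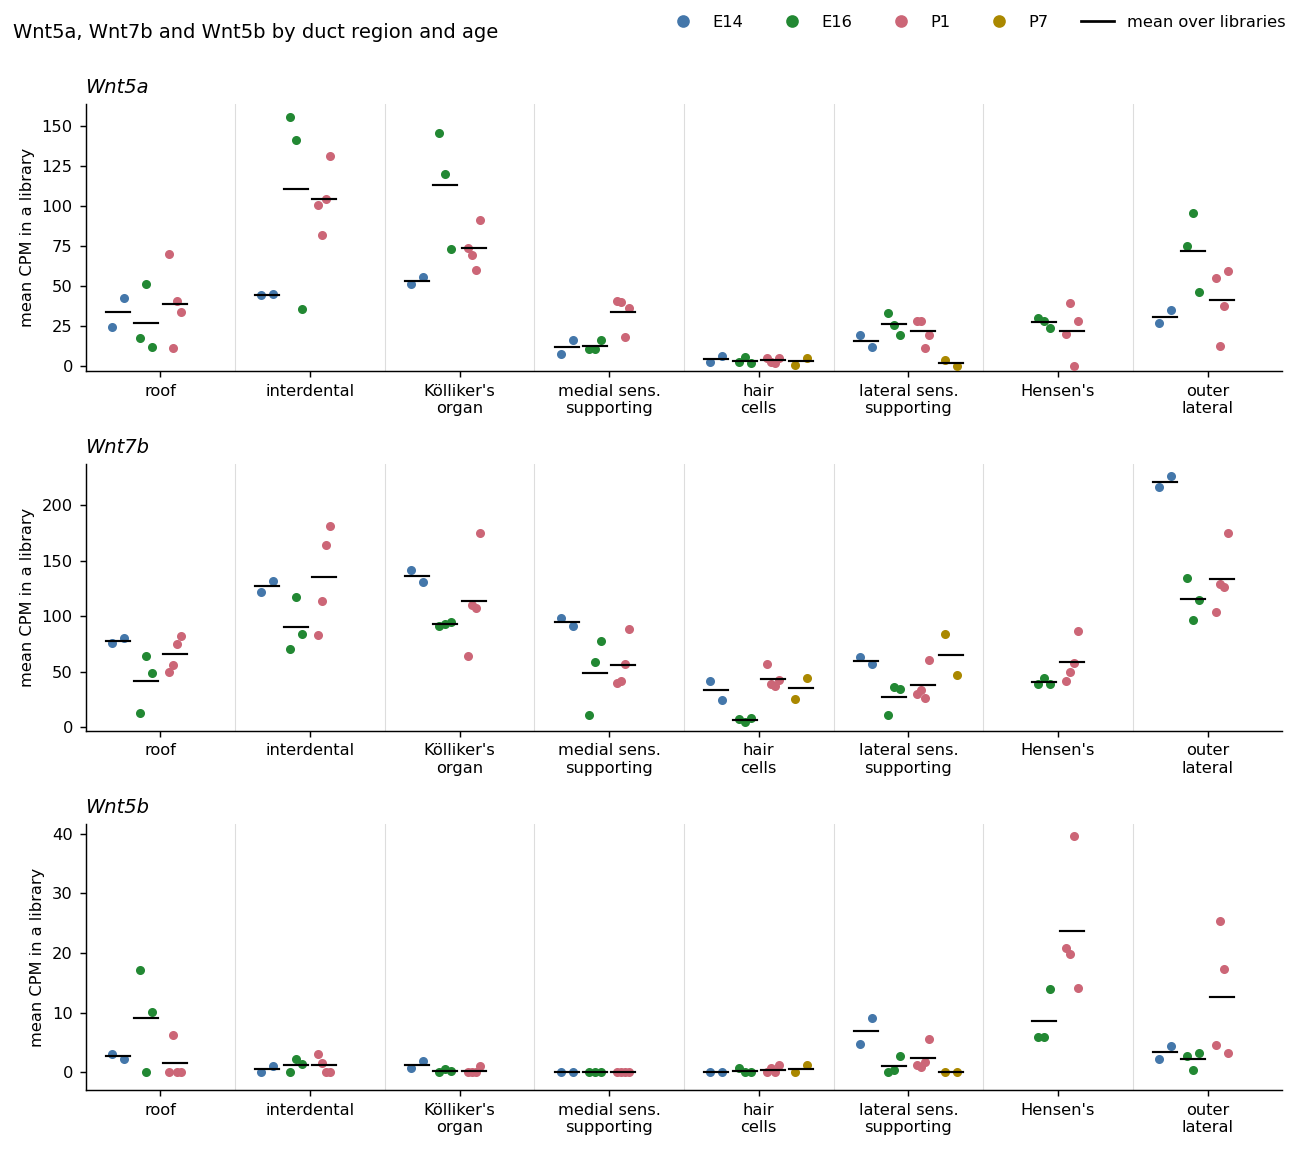
Mean CPM of Wnt5a, Wnt7b and Wnt5b in each duct region, with 1 point per library coloured by age and a line at the mean over libraries. Wnt5a is high in interdental cells and Kölliker's organ, Wnt7b at E14 in outer lateral cells, and Wnt5b at P1 in Hensen's cells.

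Wnt5a, the best known ligand of the β-catenin-independent branch and a regulator of planar cell polarity, was highest on the medial side of the floor. In Kölliker's organ it stood at 51.3 and 55.7 CPM at E14, at 146, 120 and 73.6 CPM at E16 and at 73.8, 69.6, 60.4 and 91.4 CPM at P1. In interdental cells, the most medial cells of the floor, it stood at 44.5 and 44.96 CPM, at 156, 142 and 35.7 CPM and at 101, 81.8, 105 and 131 CPM. These 2 regions overlapped at E16 and P1. In outer lateral cells it stood at 27.0 and 34.8 CPM, at 75.2, 95.4 and 46.2 CPM and at 55.4, 12.7, 37.5 and 59.3 CPM, and Kölliker's organ lay above that range at E14 and P1 and overlapped it at E16. Medial minus lateral nonsensory floor was 0.53 ± 0.24 at E14 (adjusted p = 0.219), 1.04 ± 0.28 at E16 (0.0149) and 1.43 ± 0.24 at P1 (1.51e-05). The E16 call was lost without replicate 1 (0.82, adjusted p = 0.139) or replicate 2 (0.98, adjusted p = 0.194).

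Sensory supporting cells held less Wnt5a than the nonsensory floor, by log2 differences of -1.16 ± 0.18 at E14, -1.46 ± 0.24 at E16 and -0.70 ± 0.21 at P1 (adjusted p = 0.000277, 8.45e-05 and 0.0115). At E14 the value was -0.24 (adjusted p = 0.666) when each cell was assigned to a region on its own. At P1 the call was lost without replicate 1 (-0.75, adjusted p = 0.0550) or replicate 4 (-0.57, adjusted p = 0.171) and with a pseudocount of 3 CPM (0.0746). Hair cells had the lowest level of Wnt5a at E14, E16 and P1, with 2.53 and 6.62 CPM at E14, 2.47, 5.54 and 2.19 CPM at E16 and 5.20, 2.51, 1.98 and 4.83 CPM at P1. The interdental mean was 9.78, 32.7 and 28.8 times the hair cell mean at E14, E16 and P1, with no overlap of libraries. Against the sensory supporting cells, hair cells differed by -0.69 at E14 (adjusted p = 0.0528), -1.09 ± 0.34 at E16 (0.0273) and -1.42 ± 0.29 at P1 (0.000129). The E14 value passed in 5 alternatives, among them a pseudocount of 3 CPM (-1.14, adjusted p = 0.0252) and the fit without cells of more than 3000 genes (-1.05, adjusted p = 0.0316). The E16 call was lost without any 1 of its libraries (adjusted p = 0.0976, 0.115 and 0.161 without replicate 1, 2 and 3), with a pseudocount of 30 CPM (-0.55, adjusted p = 0.133) and with no library term (0.0647). After thinning, Wnt5a was seen in 7.73%, 12.3% and 10.0% of Kölliker's organ cells at E14, E16 and P1 (19.3%, 20.5% and 25.0% before thinning, at medians of 2921.5, 2411 and 4299 UMIs) and in 3.28%, 0.666% and 0.788% of hair cells.

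Within the lateral supporting cells of E16 and P1, pillar cells and the clusters nearest to the Deiters' list were apart in Wnt5a and overlapped in Wnt7a. Pillar cells held 70.7, 55.9 and 33.9 CPM of Wnt5a at E16 and 77.3, 94.3, 46.6 and 67.5 CPM at P1. The cluster nearest to the Deiters' list held 17.4, 12.9 and 8.61 CPM at E16, and Deiters' cells held 14.4, 6.78, 3.98 and 8.57 CPM at P1. At both ages the lowest pillar library was above the highest library of these cells. The E16 cluster needed no lead over the lateral prosensory list, and its leading genes include Prox1 and Nrcam of that list. The paper describes lateral prosensory cells at E16 and Deiters' cells at P1, so the E16 cluster may be lateral prosensory. Wnt7a stood at 126, 79.7, 90.3 and 193 CPM in pillar cells and at 134, 69.4, 86.5 and 123 CPM in Deiters' cells of P1, and the ranges overlapped. The Deiters' cells of P1 were themselves divided, since a cluster of 470 cells led by Pdzk1ip1 held 96.2 to 162 CPM of Wnt7a and a cluster of 296 cells led by Igfbpl1 held 38.0 to 94.0 CPM. At P7 all 3 lateral supporting clusters scored highest on the pillar list, and only the Npy-led cluster of 47 cells did so with a clear lead over the Deiters' list. The Npy-led cluster held 267 and 285 CPM of Wnt7a and 6.03 and 0 CPM of Wnt5a. The other clusters, of 83 and 25 cells, held 59.0 to 81.9 CPM and 32.5 to 69.2 CPM of Wnt7a, so that clusters nearest to the same list differed widely. Their median depths were 11390, 7080 and 7893 UMIs per cell, and the part of depth in this was not tested. The division into pillar and Deiters' clusters was made after the regions and carries no test. A cluster of 25 cells at P1 that held hair cell and Deiters' cell markers together, and was left out of the regions, averaged 99.6 CPM of Wnt7a.

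**Figure D3:**
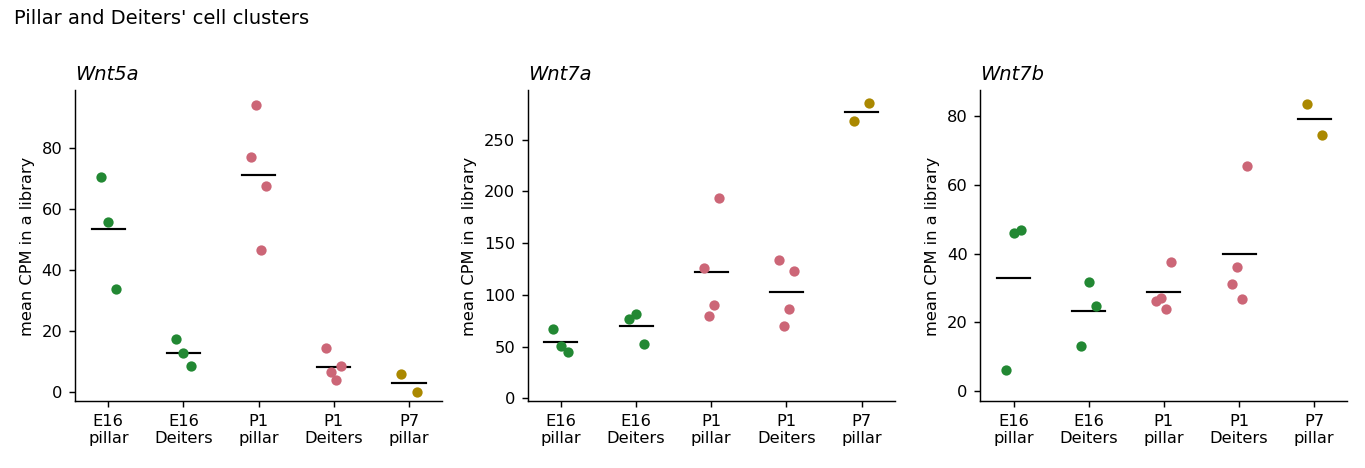
Mean CPM of Wnt5a, Wnt7a and Wnt7b per library in pillar clusters and clusters nearest to the Deiters' list at E16 and P1 and in the Npy-led pillar cluster of P7, with a line at the mean. The E16 cluster labelled Deiters may be lateral prosensory. Pillar and Deiters' libraries are apart for Wnt5a at E16 and P1 and overlap for Wnt7a and Wnt7b.

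Wnt7b, a close relative of Wnt7a that is known from lung and kidney growth, was the most broadly expressed of the members, at or above 11.1 CPM in every library of every region other than E16 hair cells and 1 E16 library of medial supporting cells (10.7 CPM). It was highest at E14 in outer lateral cells, with 216 and 226 CPM, followed by Kölliker's organ with 142 and 131 CPM and interdental cells with 122 and 132 CPM. At E14 the outer lateral libraries were above all others. Medial minus lateral nonsensory floor at E14 was -0.71 ± 0.16 (adjusted p = 0.00674), and -0.42 (adjusted p = 0.0818) when each cell was assigned on its own. At E16 outer lateral cells held 134, 96.7 and 115 CPM and at P1 104, 129, 126 and 175 CPM, against 91.6, 92.6 and 95.1 CPM and 64.1, 110, 107 and 175 CPM in Kölliker's organ. The ranges met at P1 and lay just apart at E16, when interdental cells, at 70.2, 117 and 84.0 CPM, overlapped outer lateral cells. The E16 contrast was 0.34 (adjusted p = 0.606).

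At P1 the same contrast was 0.40 ± 0.14 in the other direction (adjusted p = 0.0404). It rested on Hensen's cells, which make up part of the lateral mean at P1, were not found at E14, and held 41.9, 50.0, 57.5 and 86.6 CPM, since the outer lateral mean of 134 CPM was above the medial mean of 125 CPM. The P1 call was lost without replicate 2 (adjusted p = 0.130), replicate 3 (0.176) or replicate 4 (0.153), with the coarser clustering (0.0596), with cells assigned singly (0.28, adjusted p = 0.208) and with no library term (0.247). With outer lateral cells as the lateral side at both ages, the change of the contrast from E14 to P1 was 0.57 (adjusted p = 0.447).

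Sensory supporting cells held less Wnt7b than the nonsensory floor at the 3 ages tested, by log2 differences of -0.97 ± 0.12 at E14, -1.10 ± 0.25 at E16 and -1.04 ± 0.12 at P1 (adjusted p = 2.77e-05, 0.00271 and 1.45e-08). In lateral supporting cells it stood at 62.9 and 56.7 CPM, at 11.1, 36.1 and 34.2 CPM, at 30.04, 33.9, 26.3 and 60.4 CPM and at 84.2 and 46.9 CPM from E14 to P7. Hair cells held 41.8 and 25.0 CPM at E14, 7.53, 4.48 and 8.39 CPM at E16, 56.6, 38.7, 36.8 and 43.0 CPM at P1 and 25.9 and 44.2 CPM at P7. Hair cells were thus below lateral supporting cells without overlap at E14 and E16 and within their range at P1. The difference from all sensory supporting cells was -1.003 ± 0.16 at E14 and -1.32 ± 0.35 at E16 (adjusted p = 0.000439 and 0.00812), and at P1 it was -0.03 ± 0.17 (adjusted p = 0.920). The change from E14 to P1 was tested on its own and came to 0.98 ± 0.28 (adjusted p = 0.00778). It was 0.75 without E14 replicate 2 (adjusted p = 0.204), 0.57 with cells assigned singly (0.131) and 0.84 without cells of more than 3000 genes (0.0627). The E14 hair cell level rests on 12 UMIs in 61 cells. All of these cells scored nearer to inner than to outer hair cell markers, as did 182 of the 1015 hair cells of P1. The part of hair cell type in this change was not tested. The supporting cell means also moved from E14 to P1, from 94.6 to 56.5 CPM in medial and from 59.8 to 37.7 CPM in lateral cells. Hair cells averaged 33.4 and 43.8 CPM, a log2 difference of 0.32 (limma's adjusted p = 0.498 with no filter). The change in the contrast is thus not a rise in hair cells alone. The E16 call was lost without replicate 2 (-1.01, adjusted p = 0.241) or replicate 3 (-1.11, adjusted p = 0.241).

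At P7 hair cells were lower than lateral supporting cells by -0.73 ± 0.30 (adjusted p = 0.0364), with ranges just apart, and this sign turned when each cell was assigned on its own (0.16) and when clusters were named more loosely (0.030). It was also lost without cells of more than 3000 genes (-0.43, adjusted p = 0.382), with a pseudocount of 3 CPM (0.0546), with a filter of 10 CPM (0.0568) and with no library term (0.114). Within the P7 hair cells, Wnt7b stood at 43.7 and 102 CPM in inner hair cells, which carry sound signals to the brain, and at 14.9 and 14.3 CPM in outer hair cells, the amplifiers of the organ of Corti. At P1 inner hair cells held 48.8 to 57.0 CPM and outer hair cells 32.9 to 58.5 CPM, with overlap. After thinning, Wnt7b was seen in 28.4% of outer lateral cells at E14 (25.4 to 31.6%) and in 4.92% of hair cells, 64.3% and 13.1% before thinning, at medians of 4733 and 4876 UMIs.

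The P1 libraries differed in level across regions. Replicate 4 was the highest of the 4 in 7 of 8 regions for Wnt7b, in 6 of 8 for Wnt7a and in 3 of 8 for Wnt5a, and replicate 1 was the lowest for Wnt7b in 6 of 8. Replicate 4 had the most cells (5598) and the lowest median depth of that age (3831.5 UMIs per cell against 5227 to 5647.5). The part of depth in these levels was not tested, and the region contrasts were fitted within libraries.

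Wnt5b, the paralogue of Wnt5a, was near the lower limit of these data in most regions. At E14 it was highest in lateral supporting cells, at 4.82 and 9.05 CPM (1 and 3 UMIs). At E16 it averaged 9.06 CPM in the roof, at 17.1, 0 and 10.1 CPM, and 8.63 CPM in Hensen's cells, the supporting cells lateral to the outer hair cells, with overlap. At P1 Hensen's cells had the highest mean. There it stood at 5.98, 5.99 and 13.9 CPM at E16 (5 UMIs in 97 cells) and at 20.8, 19.9, 39.7 and 14.1 CPM at P1 (28 UMIs in 176 cells). Outer lateral cells of P1 held 4.61, 25.3, 17.3 and 3.35 CPM and overlapped Hensen's cells. Medial supporting cells had no UMI of Wnt5b in any library of E14, E16 or P1, and in Kölliker's organ no library was above 1.91 CPM. Among the fits within an age, Wnt5b passed the filter on low values only at P1, through its Hensen's and outer lateral levels, so that contrasts with these cells had to differ. At that age medial minus lateral nonsensory floor was -1.28 ± 0.16 and sensory supporting minus nonsensory floor was -0.59 ± 0.14. In the fit with no filter, the adjusted p of Wnt5b was 3.37e-06 and 0.00547. After thinning it was seen in 2.27% of P1 Hensen's cells (13.6% before thinning).

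**Figure D4:**
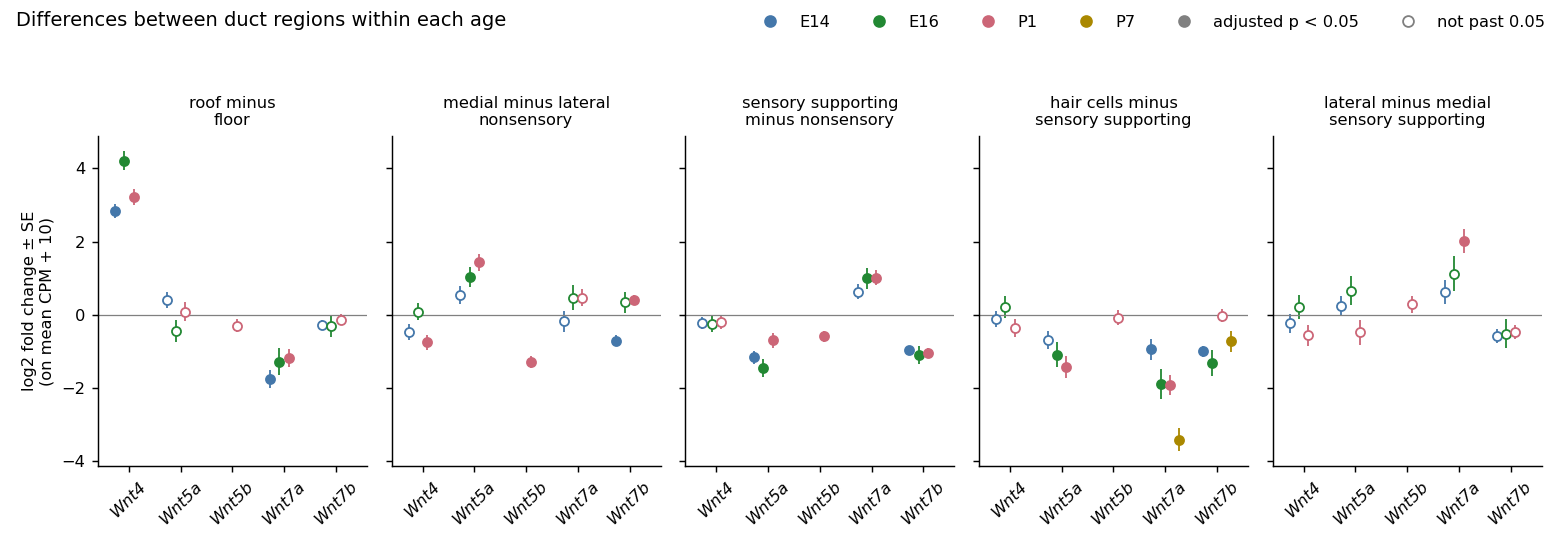
Log2 fold changes (on mean CPM + 10) with SE of the 5 members in each region contrast, by age, filled where limma's adjusted p was under 0.05. Wnt4 and Wnt7a lie on opposite sides of 0 in roof against floor, and Wnt7a against Wnt5a and Wnt7b in sensory supporting against nonsensory floor.

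Counted over the members, roof against floor was called for 2 of 4 tested at E14, 2 of 4 at E16 and 2 of 5 at P1, Wnt4 higher and Wnt7a lower each time, where 18.7%, 14.6% and 35.1% of all genes tested were called. At P1 the members' share was thus close to that of all genes. Wnt4 at E14 and E16 entered through the group where it is high, and 1 of the other 3 was called at each of these ages. That 1 was Wnt7a, which entered through the floor, where it is high, at E14, E16 and P1. Wnt5a and Wnt7b were not called in this contrast at any of these ages. Medial against lateral nonsensory floor was called for 1 of 4 at E14 (11.1% of all genes), 1 of 4 at E16 (8.66%) and 4 of 5 at P1 (21.2%), Wnt5a and Wnt7b higher medially and Wnt4 and Wnt5b laterally at P1. Wnt5b entered through its lateral level, and 3 of the other 4 were called there. Sensory supporting against nonsensory floor was called for 2 of 4 at E14 (16.2% of all genes), 3 of 4 at E16 (11.5%) and 4 of 5 at P1 (22.3%), with Wnt7a the only called member that was higher in sensory supporting cells. Without Wnt5b, P1 had 3 of 4. Hair cells against sensory supporting cells was called for 2 of 4 at E14 (22.2% of all genes), 3 of 4 at E16 (15.2%), 2 of 5 at P1 (45.5%) and 2 of 2 at P7 (47.0%), lower in hair cells in each case. Of the 2 at P7, Wnt7a entered through its supporting cell level. Lateral against medial sensory supporting cells was called by limma for 0 of 4 at E14 (2.31% of all genes) and 0 of 4 at E16 (4.99%), with 1 member at an unadjusted p under 0.05 at each age, and for 1 of 5 at P1 (9.78%).

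Changes of these contrasts between E14 and P1 were fitted as interactions, and all but the hair cell contrast of Wnt7b missed the threshold. For roof against floor 0 of 4 members passed (3.37% of all genes, and 0 members at an unadjusted p under 0.05), for medial against lateral 0 of 4 (2.54%, and 1 unadjusted), and for sensory supporting against nonsensory floor 0 of 4 (5.19%, and 0 unadjusted). For hair cells against sensory supporting cells 1 of 4 passed (23.9% of all genes), and for lateral against medial supporting cells 0 of 4 (2.20%, and 1 unadjusted).

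Within regions, few members changed with age at the precision of 2 to 4 libraries. From E14 to P1, limma called 0 of 3 members tested in Kölliker's organ (13.1% of all genes), 0 of 3 in lateral supporting cells (6.39%), 0 of 5 in outer lateral cells (0.529%), 1 of 2 in hair cells (30.8%) and 0 of 3 in the roof (0.479%). At an unadjusted p under 0.05 there were 0, 1, 1, 1 and 0. The member called was Wnt7a in hair cells, at 17.0 CPM on average at E14 (9 UMIs in 61 cells) and 4.98 CPM at P1. These E14 cells all scored nearer to inner hair cell markers, against 182 of 1015 hair cells at P1, and the part of hair cell type was not tested. The means of Wnt7a in hair cells at E16, P1 and P7 were under the 5 CPM of the filter, so that it entered through E14 and had to differ. The log2 difference was -0.85 ± 0.27 (adjusted p = 0.0213, and 0.0341 with no filter). It was -0.35 (adjusted p = 0.481) with cells assigned singly, and it missed the threshold without E14 replicate 2 (0.0761) or P1 replicate 3 (0.0560). In lateral supporting cells Wnt7a differed by 0.81 ± 0.29 in the other direction (adjusted p = 0.1001), and in outer lateral cells Wnt7b differed by -0.71 ± 0.29 (adjusted p = 0.441). From P1 to P7, 1 of 3 members was called in lateral supporting cells (12.1% of all genes) and 0 of 2 in hair cells (16.4%, and 0 unadjusted). The member called was Wnt5a, which fell by 1.40 ± 0.33 (adjusted p = 0.00582, and 0.0224 with no filter, since its P7 level was under that of the filter), from 28.4, 28.0, 11.04 and 19.3 CPM to 3.58 and 0 CPM without overlap. That call was lost without P7 replicate 5 (adjusted p = 0.123) and without cells of more than 3000 genes (0.0891).

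Since the unnamed epithelial cells of P7 could not be divided by these markers, they were pooled and set against the pooled nonsensory epithelium of the earlier ages (3733, 5979, 11537 and 2524 cells from E14 to P7). The P7 pool held clusters nearest to the inner phalangeal list (172 cells), the roof list (237 cells) and the glia list (28 cells). At earlier ages, cells named as roof or medial sensory supporting were left out of the pool. Wnt5a stood at 44.3 and 49.8 CPM at E14, at 133, 120 and 63.5 CPM at E16, at 69.7, 60.8, 56.8 and 87.1 CPM at P1 and at 9.81 and 9.92 CPM at P7. Wnt7b stood at 158 and 151 CPM, at 97.3, 95.4 and 98.4 CPM, at 66.7, 93.9, 102 and 158 CPM and at 15.6 and 16.8 CPM. Wnt7a stood at 25.5 and 24.0 CPM, at 23.7, 18.9 and 19.8 CPM, at 10.6, 19.7, 22.7 and 43.2 CPM and at 0.904 and 0.688 CPM, the last from 13 UMIs in 2524 cells. For all 3, both P7 libraries were below every library of P1. The ratio of the P1 mean to the P7 mean was 6.95 for Wnt5a, 6.49 for Wnt7b and 30.2 for Wnt7a.

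From P1 to P7 the log2 differences in the pooled epithelium were -1.97 ± 0.25 for Wnt5a, -2.08 ± 0.24 for Wnt7b and -1.57 ± 0.27 for Wnt7a (adjusted p = 7.26e-05, 3.39e-05 and 0.000922), so that 3 of 3 members tested were called where 24.3% of all genes were. Wnt7a, under 5 CPM at P7, passed the filter through the earlier ages and had to differ. From E14 to P1, 0 of 3 were called by limma (21.1% of all genes, and 1 at an unadjusted p under 0.05). That member was Wnt7b, at -0.58 ± 0.24 (adjusted p = 0.108), and it passed without P1 replicate 4 (-0.78, adjusted p = 0.00520). The mix of cell types in the pool differs between ages, and a lower level per cell cannot be told apart here from fewer cells of the types that hold the transcript. The median depth of the pooled cells was 4765 UMIs at P1 and 4672.5 UMIs at P7. After thinning, Wnt7a was seen in 3.9005% of pooled cells at P1 and 0.158% at P7 (10.2% and 0.396% before thinning). Wnt7a in lateral supporting cells of the same P7 libraries stayed at 126 and 134 CPM, 164 times the pooled mean. Wnt7b showed no fall there either, with means of 37.7 CPM at P1 and 65.5 CPM at P7. Its log2 difference was 0.67 (limma's adjusted p = 0.361 with no filter). At P7 its lateral supporting libraries (46.9 and 84.2 CPM) were above those of the pool. Wnt4, under the filter in the pool, stood at 3.51, 2.26, 2.95 and 2.72 CPM at P1 and 9.59 and 10.49 CPM at P7 without overlap, and was not tested.

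**Figure D5:**
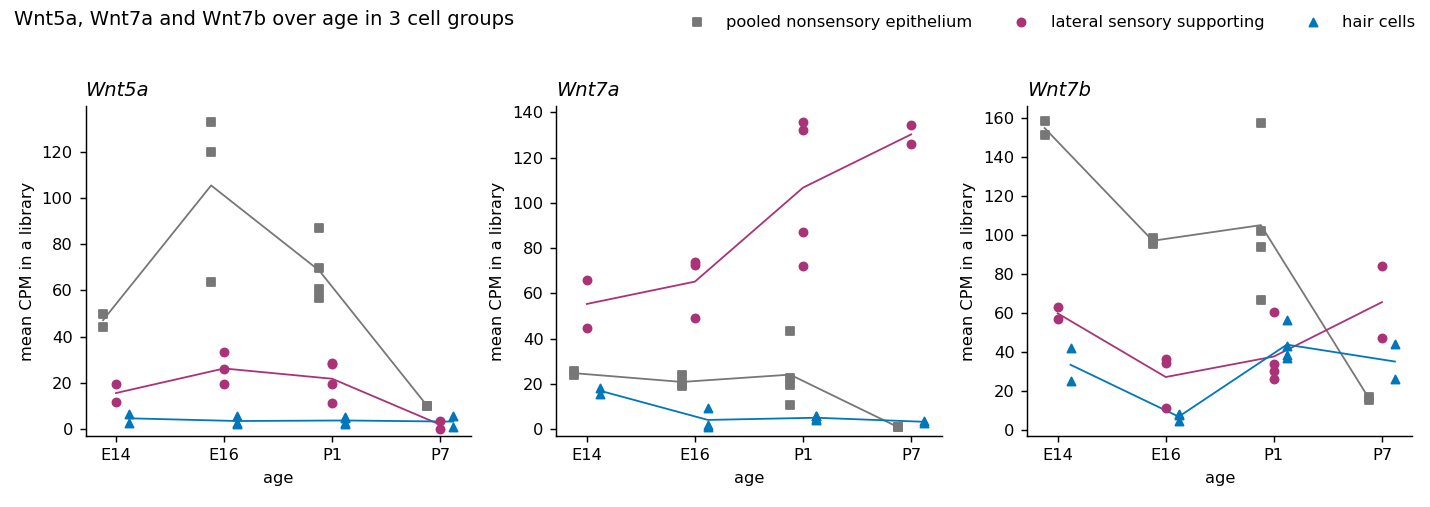
Mean CPM of Wnt5a, Wnt7a and Wnt7b per library at the 4 ages in the pooled nonsensory epithelium (at P7 the unnamed epithelial cells), lateral sensory supporting cells and hair cells, with lines through the means. The pooled epithelium falls for all 3 genes from P1 to P7. In lateral supporting cells of P7, Wnt7a stays at 126 and 134 CPM and Wnt7b at 46.9 and 84.2 CPM.

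The other genes of the pathway were taken from fixed lists. Of 14 further Wnt ligands, 9 were among the genes listed at any age, and the rest could not be measured. Of the 9, 3 reached a mean of 10 CPM in a named region. Wnt9a was the most abundant of them, with means of 22.4, 22.01 and 59.8 CPM in Kölliker's organ at E14, E16 and P1, and it was lower in sensory supporting cells than in the nonsensory floor at all 3 ages (log2 differences -0.94, -0.82 and -1.16, all called), as Wnt5a and Wnt7b were. In medial and lateral supporting cells it averaged 0 and 1.74 CPM at E16 and 4.46 and 2.13 CPM at P1, under the filter on low values. At E16 Wnt9a entered through the nonsensory floor and had to differ, and the filter's part in the P1 call was not tested. Wnt8b, listed only at P7, was seen in hair cells of that age at 34.3 and 46.6 CPM and had no UMI in P7 lateral supporting cells. Wnt6 averaged 13.8 CPM in outer lateral cells of P1, with libraries from 0 to 29.1 CPM.

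Wls, which carries Wnt proteins out of the cell, was highest at P1 in inner phalangeal cells and lowest in hair cells. It averaged 139 CPM in the roof, 257 CPM in inner phalangeal cells, 36.1 CPM in lateral supporting cells and 5.01 CPM in hair cells of P1. Hair cells minus sensory supporting cells was -2.87 ± 0.18 (adjusted p = 6.40e-16) and lateral minus medial supporting cells was -2.55 ± 0.21 (1.13e-11), the direction opposite to that of Wnt7a. Porcn, the acyltransferase, averaged 5.24 to 15.03 CPM over the regions of P1.

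Of 18 receptors, 12 were tested at P1. In sensory supporting against nonsensory floor 3 were higher and 0 lower, a share close to the 22.3% of all genes called, with Fzd9 at 3.09 and Fzd4 at 2.93. In hair cells against supporting cells 1 was higher and 7 lower, where 45.5% of all genes were called, with Fzd4 at -2.17. Fzd9, a Frizzled receptor, averaged 736 CPM in lateral and 133 CPM in medial supporting cells (log2 difference 2.38 ± 0.35, adjusted p = 3.79e-06), the same direction as Wnt7a. Of 14 secreted antagonists, 8 were tested. The roof had 3 higher and 3 lower, where 35.1% of all genes were called, with Sostdc1 at 2.28. Dkk2, at 61.9 CPM in the roof and 0.371 CPM in the floor, passed the filter through the roof and had to differ. Hair cells had 0 higher and 6 lower, where 45.5% of all genes were called, with Sfrp1 at -3.25. Frzb, a Wnt-binding antagonist, was lower medially (-3.03 ± 0.23, adjusted p = 2.69e-13) at 4.95 against 116 CPM, which is the lateral side where Wnt4 and Wnt5b were higher at P1. Of 16 feedback and R-spondin genes, 8 were tested. In sensory supporting against nonsensory floor 4 were higher and 3 lower, where 22.3% of all genes were called, and in medial against lateral nonsensory floor 3 were higher and 1 lower, where 21.2% were. Rspo2 was higher medially (1.69), as Wnt5a was, and Lgr5 was higher in sensory supporting cells (2.54). Sp5 (73.1 CPM in sensory supporting cells and 1.07 CPM in the nonsensory floor) and Lgr6 (22.2 and 0.346 CPM), 2 of the 4 higher, passed the filter through the supporting cells and had to differ. Rspo3 stood at 39.4 CPM medially and 0 CPM laterally, and the filter's part in its call was not tested. In hair cells against supporting cells at P1, the median log2 difference was -0.71 over the tested receptors and -1.64 over the tested antagonists, against 0.03 over all 11059 genes.

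Over the 25 region-by-age means, the genes whose levels were most like each member's, at most 5 for each, were read from 12663 genes as a description. For Wnt4 they were Cyp4v3, Cndp1, Cldn22 and Lypd2 (Pearson r from 0.97 to 0.95), for Wnt5a Tns3, Oat, Mmp2, Cd302 and Fxyd1 (0.88 to 0.86) and for Wnt7a Ebf3, Tmem168, 2810006K23Rik, Eva1a and Fam83g (0.86 to 0.81). For Wnt5b they were Flt1, Npl, Car10, Acp5 and Aldh1a1 (0.86 to 0.77) and for Wnt7b Acaa2, Tmem242, Riok1, Plek2 and Oard1 (0.83 to 0.77). The members were not alike among themselves, with the closest pair Wnt5a and Wnt7b (0.64) and the most opposed pair Wnt4 and Wnt7a (-0.55). Regions of an age share libraries, so that these 25 points are not independent. Wnt4 averaged 73.5, 233 and 135 CPM in the roof and at most 16.1 CPM in any other region, so that its r values rest mainly on the roof points.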

How the data were processed

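The authors aligned reads to mm10 and counted UMIs with Cell Ranger 2.1.1, then filtered cells and normalised in Seurat 2.0. The deposited values are the natural log of 1 plus 10000 times a gene's share of the UMIs of a cell. The log base was read from the values, and dividing by the smallest step of each cell gave whole UMIs within 2% for 100% of values above 0. Here values were turned back into CPM and averaged over the cells of a region in each library, where it held at least 10 cells. Cells were clustered within each age (2000 variable genes without Wnt pathway genes, 30 principal components corrected for library by a Harmony-type step, 20 neighbours, leidenalg 0.10.2 at resolution 2, seed 1, Python 3.11.15). Clusters were named from marker lists, some drawn from the study's own tables on these libraries, and the scores a name needs (a mean log2 rise of 1.0 with a lead of 0.5 over the next list, from at least 3 markers) were chosen with the clusters in view. No doublet caller was run. Clusters that mixed hair cell markers with those of another type were dropped. Cells of more than 3000 genes, 0 to 552 per library, were kept.

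Regions were compared with limma 3.58.1 (R 4.3.3) on log2(CPM + 10), with a mean trend, for genes averaging 5 CPM or more over the profiles. Within an age, region and library were terms of the fit. Between ages, age was the term, without a block. Two-sided p-values were adjusted (Benjamini-Hochberg) across every gene in the fit, and 0.05 was the threshold. The fits were tested on simulated data. Members, lists and tests were chosen with earlier results of these data known, and the pooled epithelium and the interaction tests were added after seeing the data. The text names the 5 members, further Wnt ligands reaching 10 CPM, and of each other pathway list at most the 3 largest called differences of a P1 contrast. Of the genes most alike in pattern to the members, 1 is not reported here.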

Additional observations from a re-analysis of the deposited data

Results flagged for a closer look

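Of 39 groups of 4 libraries tested for a library far from the rest, 3 held such a library, and chance alone would give about 1 in 20. Where 3 libraries have no UMI, any UMI in the remaining library meets this criterion, which holds for both Wnt5b values. Wnt4 in medial sensory supporting cells of P1 stood at 28.13 CPM in replicate 2, from 46 cells, and at 1.75 to 6.14 CPM in the other 3 libraries. Wnt5b stood at 6.28 CPM in roof cells of P1 replicate 2, from 1 UMI in 23 cells, with no UMI in the other 3 libraries. In Kölliker's organ of P1, Wnt5b stood at 1.075 CPM in replicate 4, from 8 UMIs in 2018 cells, again with no UMI in the other 3.

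Of 20 tests of a change between E14 and P1, 1 passed. It was 1 of 4 members in the hair cell contrast, where 23.9% of all genes were called, so that the members' share was close to that of all genes. In the other contrasts, 2.20 to 5.19% of all genes were called. Hair cells minus sensory supporting cells changed by 0.976057 (log2) for Wnt7b, from -1.003 at E14 to -0.03 at P1, and was 0.57 (adjusted p = 0.131) when each cell was assigned to a region on its own.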

How the results depend on the processing

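Of 37 values of a member past the threshold, 22 stayed past it in the same direction under every alternative in which the member was tested. Of 77 values that missed it, 69 stayed so. A member that fell under the filter in an alternative was not compared there, and a call lost in that way is not counted. With a filter of 10 CPM, medial against lateral nonsensory floor went from 6 to 5 calls in this way. Over 1816 alternative values, 1753 kept direction and side of the threshold, 46 lost it, 15 gained it and 2 turned sign, both for Wnt7b in P7 hair cells against lateral supporting cells (-0.73 as reported, 0.16 with cells assigned singly, 0.030 with looser naming). The pooled fall from P1 to P7 was kept without each library in turn and with the replicate block, the alternatives run for it.

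Calls of members over the ages or regions of a comparison moved as follows when each library was left out in turn. Roof against floor went from 6 to 5 to 6, medial against lateral nonsensory floor from 6 to 3 to 7 (3 without P1 replicate 3), sensory supporting against nonsensory floor from 9 to 8, and hair cells against supporting cells from 9 to 7 to 9. Lateral against medial supporting cells went from 1 to 1 to 2 (2 without E16 replicate 1), P1 against E14 from 1 to 0 to 1 (0 without E14 replicate 2 or P1 replicate 3), and P7 against P1 from 1 to 0 to 1 (0 without P7 replicate 5). Within E14 and within P7, no library could be left out of a region fit, since no residual degree of freedom remained. Lateral against medial supporting cells gave 2 calls with no filter on low values, 3 with cells assigned singly and 3 with looser naming. P1 against E14 gave 0 with a filter of 10 CPM and 0 without cells of more than 3000 genes. P7 against P1 gave 2 with no filter, 6 with cells assigned singly, 4 with looser naming, where more regions were named at P7, and 0 without cells of more than 3000 genes. The other causes were not tested.

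Libraries of the same replicate number did not deviate together (correlations of -0.13 to 0.056 over regions and pairs of ages), so the numbers do not pair them. With the replicate block, P1 against E14 within regions gave 0 calls (Wnt7a in hair cells -0.78, adjusted p = 0.0898) and P7 against P1 gave 0 (Wnt5a in lateral supporting cells -1.11, adjusted p = 0.209), whereas Wnt7b in the pooled epithelium passed from E14 to P1 (-0.83, adjusted p = 0.0194). Some groups were small, with 61 hair cells at E14 and 12 to 28 lateral cells of a kind in P1 replicates 2 and 3. E16 replicate 1 had 20 medial supporting cells, and P1 replicate 3 had 14 roof cells. E14 and P7 had 2 libraries each. Which of these limited the results most was not tested.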

Other observations

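An unnamed P7 cluster differed from the pooled P7 epithelium in its levels of the members. These 32 cells, led by Oc90, Ucma, Pmch, Apoc1 and Bmp4 and so by markers of more than 1 region, held 129 and 152 CPM of Wnt7b, 22.9 and 26.8 CPM of Wnt7a, 18.7 and 23.7 CPM of Wnt5a, 9.50 and 13.3 CPM of Wnt5b and 8.95 and 11.95 CPM of Wnt4. In the pooled epithelium that includes them, the averages were 16.2 CPM of Wnt7b, 0.796 CPM of Wnt7a, 9.87 CPM of Wnt5a, 2.79 CPM of Wnt5b and 10.04 CPM of Wnt4, so that Wnt4 was at the pooled level. Lateral supporting cells of the same age held more Wnt7a, at 126 and 134 CPM.

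P7 mesenchymal cells (258 cells, left out of the pool) held 71.9 and 87.7 CPM of Wnt5a and 7.92 and 20.7 CPM of Wnt5b, against 9.87 and 2.79 CPM on average in the pooled epithelium of that age. In P7 glial cells (100 and 77 cells in 2 clusters) Wnt7a averaged 1.27 and 0 CPM and Wnt7b 0.746 and 0 CPM.

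A cluster of 33 P7 cells with markers of hair cells and pillar cells together, left out of the regions, held 54.1 and 55.3 CPM of Wnt7a, between the P7 hair cells (3.19 CPM on average) and the lateral supporting cells (130 CPM).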
